A study of Rattus norvegicus with 6 samples.

Results

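The enzymes that make prostaglandins and leukotrienes from arachidonic acid were followed here through 10 genes in rat Schwann lineage cells. The genes are Pla2g4a, Ptgs1, Ptgs2, Ptges, Ptgis, Ptgds, Hpgd, Alox5, Alox5ap and Ltc4s, taken by symbol from the 29468 gene symbols of the expression tables. RNA sequencing compared 3 preparations of Schwann cell precursors (SCPs) with 3 preparations of repair Schwann cells (RSCs), all labelled as wild type and of the LEWIS strain. The methods describe the cells used for grafting as coming from LEWIS rats that carry a red fluorescent protein, and do not say whether the cells for RNA differed. SCPs are the glial cells of embryonic nerves, and they were taken untreated from sciatic nerves and the brachial plexus at embryonic day 14. RSCs are the form that Schwann cells take in an injured nerve, and they were taken from sciatic nerves of rats of 10 weeks, distal to the cut, 1 week after transection. By the study's methods both were dissociated with collagenase and trypsin and kept briefly in uncoated flasks to take out adherent fibroblasts and macrophages, and the RSC nerves were digested in a stronger collagenase solution and for longer. The study took purity from Sox10 immunolabelling of cultured cells, and it reported most cells of both kinds as labelled. No sorting step is described, and the number of animals in each preparation was not given in the sources used here. Age, injury and dissociation changed together between the groups.

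Cytosolic phospholipase A2 frees arachidonic acid from membrane lipids. Cyclooxygenases turn it into prostaglandin H2, from which separate synthases make prostaglandin E2, prostacyclin, prostaglandin D2 or thromboxane, while 5-lipoxygenase, helped by its activating protein, turns it into leukotriene A4, the parent of leukotrienes B4 and C4. In nerve these lipids are known as mediators of inflammation, vascular tone and pain, and macrophages and mast cells are well-known sources of them.

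Levels are in FPKM, the fragments mapped to a transcript divided by its length and by the size of the library, summed over the named transcripts of a symbol. The scale is corrected for length, so levels of different genes can be set side by side. Differences are log2 fold changes of FPKM + 1, RSC minus SCP, from limma over 13003 genes whose mean reached 1 FPKM, and a gene is called at an unadjusted p under 0.01. The study's own rule joins a p under 0.01 with a log2 fold change over 2, and genes past both are counted apart. Adding 1 understates the change of low genes. P-values were adjusted by the Benjamini-Hochberg method across the whole tested set. Differences are given with their standard error (SE). P-values weigh each difference against the spread between these preparations, which limma moderates with the spread of other genes.

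The genes Pla2g4a, Ptgs1, Ptgs2, Alox5ap and Ltc4s were higher in RSCs, and Ptgis, which encodes prostacyclin synthase, was higher in SCPs. These 6 were the called genes among 7 of the 10 that passed the filter on low values, beside a background of 40.5% of all tested genes called, with 18.1% higher in the RSC group and 22.4% higher in the SCP group. Of these, 4 (Ptgs1, Ptgs2, Alox5ap and Ltc4s) had a log2 fold change of FPKM + 1 over 2, that is over 4-fold, toward RSCs, as did 7.81% of tested genes, and none had one over 4-fold toward SCPs, as did 3.78%. By the ratio of mean FPKM, without the added 1, Pla2g4a was also over 4-fold higher in RSCs. The median log2 fold change over the 7 tested genes was 2.21, and over all tested genes it was -0.17. Pla2g4a, Ptgs2, Alox5, Alox5ap and Ltc4s had SCP means under 1 FPKM and passed the filter only through their RSC values. The filter thus favoured a direction toward RSCs for them, and the count and median are given as description only. The seventh gene, Alox5, was not called, and Ptges, Ptgds and Hpgd fell under the filter. Over all 10 genes every RSC value lay above every SCP value in 6, an order found in 24.9% of tested genes, and every SCP value lay above every RSC value in 2, an order found in 33.7%. The 6 include Ptgds and the 2 include Hpgd, both under the filter, while the shares cover tested genes only. The summed level of the 10 genes ran from 9.39 to 12.9 FPKM in SCPs and from 51.7 to 78.3 FPKM in RSCs. The highest sum, in RSC replicate 2, includes 11.9 FPKM of Alox5, which was listed at 0 in RSC replicates 1 and 3. Transcripts without a gene name are not in these sums. In RNA of whole preparations, fewer cells of a type and less RNA per cell cannot be told apart.

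**Figure D1:**
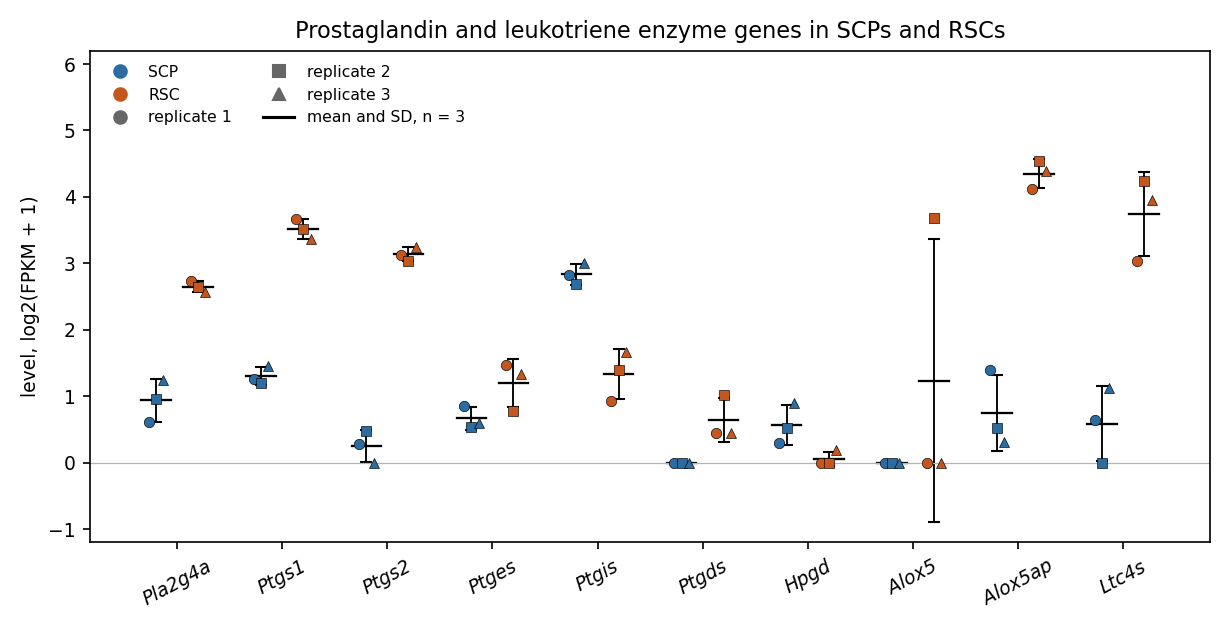
Level of each of the 10 genes in each sample, as log2(FPKM + 1), with SCPs in blue, RSCs in orange, the replicate by symbol, and the mean with its SD (n = 3) as black bars. In 6 genes all RSC points lie above all SCP points, Ptgis and Hpgd lie the other way round, and Alox5 has a single point above 0.

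Marker genes of other cell types were read beside the enzymes, and their levels differed between the groups. All 11 leukocyte and macrophage markers that the tables list were called higher in RSCs, with a summed level of 21.9 to 64.8 FPKM in SCPs and 2967 to 3775 FPKM in RSCs, and Lyz2, a lysozyme of macrophages, alone reached 1468 to 1771 FPKM in RSCs. All 5 tested mast cell markers were called higher in RSCs, and their list of 8 summed to between 0 and 0.603 FPKM in SCPs and between 52.0 and 57.2 FPKM in RSCs. Fibroblast markers were called higher in RSCs for 6 of 8, at 643 to 1022 FPKM in SCPs and 5415 to 8023 FPKM in RSCs. Of the neutrophil markers 1 of 2 tested was called higher in RSCs, with sums of 0.726 to 2.37 FPKM and 5.32 to 7.60 FPKM, and S100a8 was at 0 in every SCP sample and in RSC replicate 1. Endothelial markers were called higher in RSCs for 1 of 7, with sums of 40.8 to 72.3 FPKM in SCPs and 97.1 to 110 FPKM in RSCs, and mural markers for 2 of 5 tested, with sums that overlapped. Erythroid markers went the other way, called higher in SCPs for 5 of 6 tested, with sums of 26099 to 116051 FPKM in SCPs and 1358 to 1848 FPKM in RSCs.

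Sox10, the transcription factor that defines these glia, was at 175 to 181 FPKM in SCPs and 143 to 149 FPKM in RSCs. S100b, a marker of maturing Schwann cells, ran from 3.21 to 19.3 FPKM in SCPs and from 782 to 924 FPKM in RSCs. These marker levels moved with the group, and so with every difference given for the enzymes, and their part in those differences was not tested.

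**Figure D2:**
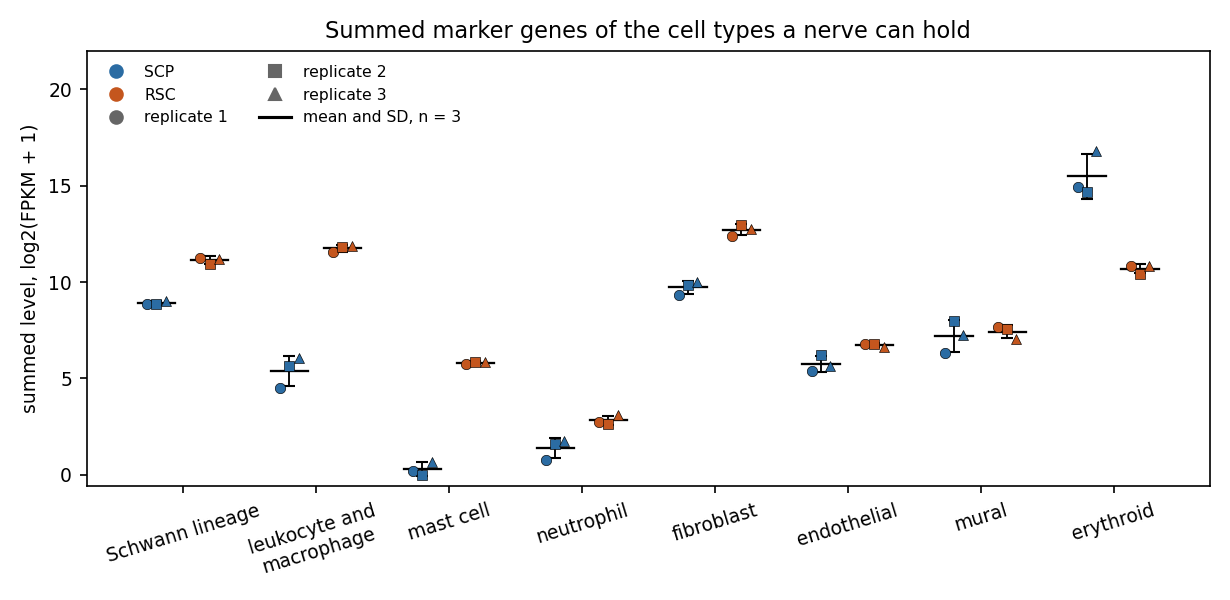
Summed level of each marker list in each sample, as log2(FPKM + 1), with SCPs in blue, RSCs in orange, the replicate by symbol, and the mean with its SD (n = 3) as black bars. The leukocyte, mast cell and fibroblast sums of the RSCs lie above those of the SCPs, and the erythroid sums lie below them.

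The first step, the release of arachidonic acid by cytosolic phospholipase A2, was represented by Pla2g4a (rn6 chromosome 13 from 67062252 to 67206688). Its level was 0.522, 0.946 and 1.37 FPKM in SCP replicates 1, 2 and 3 and 5.67, 5.24 and 4.94 FPKM in RSC replicates 1, 2 and 3. The groups did not overlap, and the lowest RSC sample was above the highest SCP sample by more than the range within either group. The difference was a log2 fold change of 1.71 (SE 0.24, limma adjusted p = 0.0021), and the mean FPKM was 5.57 times higher in RSCs.

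Pla2g4a lies 144541 bases from Ptgs2 on the same chromosome, with no other of the 10 genes between them. The stretches of 250 bases before the annotated starts of Pla2g4a, Ptgs1 and Ptgs2 are shown because these are the release enzyme and both cyclooxygenases, and all 3 were higher in RSCs. The sequences are from RefSeq on the GRCr8 assembly, whose coordinates differ from those of rn6, and 8 of the 10 genes have an entry in the table used. Capitals mark matches, on either strand, to 5 motifs that were chosen with the sequences in view.
Pla2g4a, chr13:64572353-64572602, minus strand: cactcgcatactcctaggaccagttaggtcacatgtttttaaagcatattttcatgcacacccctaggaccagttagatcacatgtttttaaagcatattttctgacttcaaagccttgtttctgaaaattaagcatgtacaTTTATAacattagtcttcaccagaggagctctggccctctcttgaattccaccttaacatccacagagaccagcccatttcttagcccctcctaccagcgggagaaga
Ptgs1, chr3:39981169-39981418, plus strand: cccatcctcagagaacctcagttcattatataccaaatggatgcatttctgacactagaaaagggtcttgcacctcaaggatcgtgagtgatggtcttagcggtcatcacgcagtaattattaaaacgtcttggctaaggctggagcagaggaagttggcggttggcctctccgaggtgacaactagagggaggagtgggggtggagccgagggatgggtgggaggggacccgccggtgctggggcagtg
Ptgs2, chr13:64713813-64714062, plus strand: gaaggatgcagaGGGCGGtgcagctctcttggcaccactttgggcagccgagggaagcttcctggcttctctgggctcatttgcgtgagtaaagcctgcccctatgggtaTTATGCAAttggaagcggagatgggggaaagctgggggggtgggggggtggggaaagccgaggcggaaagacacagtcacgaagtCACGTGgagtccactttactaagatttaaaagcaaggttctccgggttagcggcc

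The motifs searched were the E-box CACGTG, the C/EBP letters TTNNGCAA, the AP-1 letters TGANTCA, the GC box GGGCGG and the TATA box TATAAA. Ptgs2 held 3 of them, the E-box at bases 55 to 50 before the start, the C/EBP letters at 140 to 133 and the GC box at 238 to 233. Pla2g4a held the TATA letters on the opposite strand, at bases 108 to 103, and Ptgs1 held none of the 5 in this window. The E-box letters occur in 5.79% of the 27456 promoters of the table, the C/EBP letters in 9.2%, the AP-1 letters in 6.36%, the GC box in 32.4% and the TATA box in 13.1%. Among the 8 genes with an entry, the E-box was found in 1, the C/EBP letters in 2, the GC box in 5, the TATA box in 1 and the AP-1 letters in 0. A match describes the letters of a window and is not a binding site.

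Both cyclooxygenase genes were higher in RSCs. Ptgs1 (chromosome 3 from 15560685 to 15582339) encodes COX-1, the form most tissues make constantly, and it was at 1.39, 1.30 and 1.75 FPKM in the SCPs and at 11.7, 10.4 and 9.29 FPKM in the RSCs. The groups were far apart, with a log2 fold change of 2.21 (SE 0.18, limma adjusted p = 3.0e-04) and a mean FPKM 7.06 times higher in RSCs. The summed value rests on a pair of reference transcripts of nearly equal length, 2786 and 2787 bases, between which Cufflinks divided the level unevenly from sample to sample. SCP replicate 1 had all of it in one of them, and SCP replicates 2 and 3 and RSC replicate 2 had all of it in the other. RSC replicate 3 had 4.68 and 4.61 FPKM, so no difference between the groups is given here for either transcript alone.

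Ptgs2 (chromosome 13 from 67351230 to 67356920) encodes COX-2, the form induced in inflammation and by growth signals. It was at 0.213 and 0.398 FPKM in SCP replicates 1 and 2, listed at 0 in SCP replicate 3, and at 7.73, 7.19 and 8.51 FPKM in the RSCs. The log2 fold change was 2.88 (SE 0.22, limma adjusted p = 2.3e-04). With 0.1 added in place of 1 it was 4.98 (SE 0.67), since the SCP level is low. Cufflinks marked Ptgs2 as LOWDATA in all 3 RSC samples, its mark for a locus too complex or too shallowly sequenced for a firm estimate, and the tables give the RSC values bounds of 5.16 to 10.3, 4.95 to 9.54 and 5.99 to 11.1 FPKM.

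Much of the Ptgs2 signal in RSCs was listed under transcripts without a gene name. In each RSC sample Cufflinks had assembled such transcripts across the Ptgs2 locus. The longest in each sample covered the whole span of the reference transcript, and all ran 2307 to 2348 bases past its end. These unnamed transcripts were at 16.4 FPKM in RSC replicate 1, 11.4 FPKM in replicate 2 and 15.9 FPKM, in 2 transcripts, in replicate 3. None was listed there in any SCP sample. Counted with the gene, they made up 67.9%, 61.4% and 65.1% of its level, which came to 24.1, 18.6 and 24.4 FPKM in the RSCs. Counted in this way, 6 of the 7 tested genes were again called, 5 higher in RSCs and 1 in SCPs, beside 23.2% of tested genes called higher in RSCs and 34.2% in SCPs. Its difference was then a log2 fold change of 4.28 (SE 0.19, limma adjusted p = 7.0e-06).

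The order of the cyclooxygenases in RSCs turned on these transcripts. By named transcripts alone the ratio of Ptgs2 to Ptgs1 was 0.661, 0.691 and 0.916 in RSC replicates 1, 2 and 3, with Ptgs1 higher in each. With unnamed transcripts added for both genes it was 2.06, 1.29 and 2.19, with Ptgs2 higher in each. In SCPs the ratio was 0.153 and 0.305 in replicates 1 and 2 and 0 in replicate 3, with no unnamed transcript in either gene. Unnamed transcripts raised Ptgs1 in RSC replicates 2 and 3, to 14.4 and 11.1 FPKM, and its log2 fold change to 2.43.

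**Figure D3:**
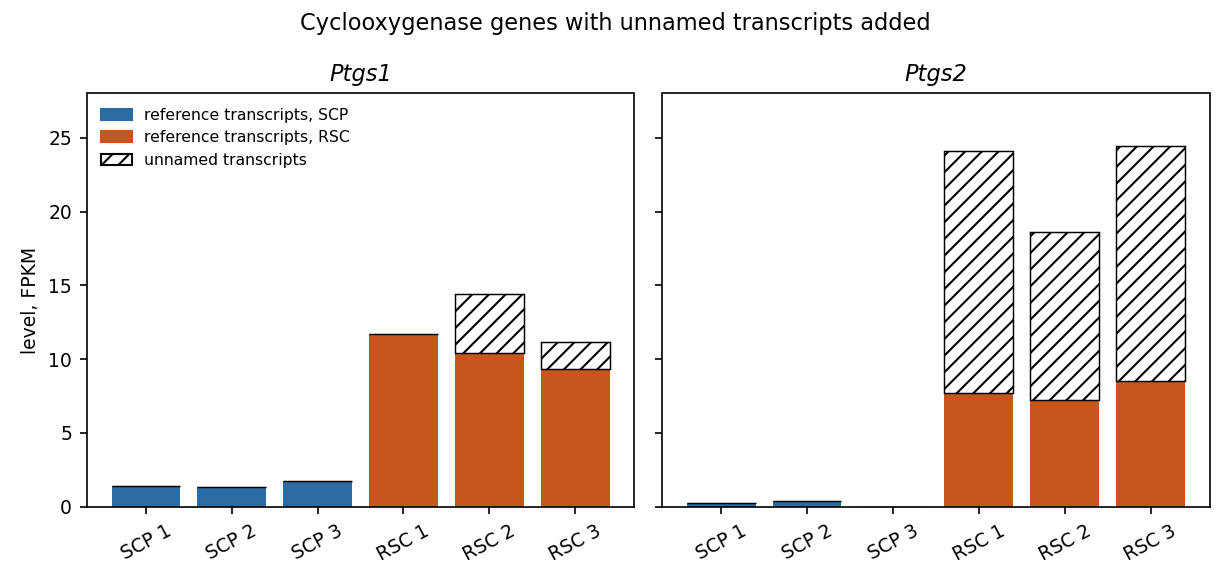
Level of Ptgs1 (left) and Ptgs2 (right) in FPKM in each sample, with named reference transcripts as filled bars (SCP blue, RSC orange) and unnamed transcripts of the same locus stacked on them as hatched bars. The hatched part is the larger part of each RSC bar of Ptgs2, between 11.4 and 16.4 FPKM, and is absent from the SCPs.

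The synthases that act on the cyclooxygenase product did not move together. Ptgis (chromosome 3 from 163950746 to 163986129), the prostacyclin synthase, was at 6.05, 5.42 and 7.03 FPKM in the SCPs and at 0.898, 1.64 and 2.17 FPKM in the RSCs. Every SCP sample lay above every RSC sample, with a log2 fold change of -1.50 (SE 0.26, limma adjusted p = 0.0046) and a mean FPKM 3.93 times higher in SCPs. It was the one gene of the 10 called in that direction, and the most abundant of the 10 in every SCP sample.

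Ptges (chromosome 3 from 9727408 to 9738752), the inducible microsomal prostaglandin E synthase, was at 0.815, 0.456 and 0.516 FPKM in the SCPs and at 1.77, 0.722 and 1.53 FPKM in the RSCs. The groups overlapped, RSC replicate 2 lying below SCP replicate 1, and the mean over the 6 samples, 0.969 FPKM, was just under the filter. Without the filter p was 0.074 by limma. Ptgds (chromosome 3 from 2686125 to 2689059), the lipocalin-type prostaglandin D synthase, stood at 0 throughout the SCPs and at 0.369, 1.02 and 0.362 FPKM in the RSCs. It was also under the filter, and without it p was 0.0095 and the adjusted p 0.032 by limma.

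Hpgd (chromosome 16 from 37457134 to 37495758), which inactivates prostaglandins, was at 0.232, 0.434 and 0.857 FPKM in the SCPs, listed at 0 in RSC replicates 1 and 2, and at 0.136 FPKM in RSC replicate 3. Every SCP value lay above every RSC value, but at levels under 1 FPKM, and without the filter p was 0.022 by limma. The difference therefore did not pass the threshold.

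In the leukotriene arm, Alox5ap and Ltc4s were higher in RSCs and Alox5 gave no clear value. Alox5ap (chromosome 12 from 6854930 to 6879112), the activating protein that presents arachidonic acid to 5-lipoxygenase, was at 1.63, 0.434 and 0.246 FPKM in the SCPs and at 16.3, 22.2 and 20.0 FPKM in the RSCs. The log2 fold change, 3.60 (SE 0.33, limma adjusted p = 4.2e-04), was the largest of the 6 called genes by named transcripts with 1 added, and the mean FPKM was 25.3 times higher in RSCs. Ptgs2 exceeded it with 0.1 added (4.98 against 4.83), with unnamed transcripts added and by the ratio of mean FPKM (38.4 times).

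Ltc4s (chromosome 10 from 35736486 to 35742397), the leukotriene C4 synthase, was at 0.562 FPKM in SCP replicate 1, listed at 0 in replicate 2 and at 1.17 FPKM in replicate 3. In the RSCs it was at 7.20, 18.0 and 14.5 FPKM, replicate 1 being the lowest by a wide margin. The groups did not overlap, and the log2 fold change was 3.16 (SE 0.43, limma adjusted p = 0.0020). With 0.1 added in place of 1 it was 4.83 (SE 1.01). Nearly all of the RSC level was in 1 of its 3 reference transcripts, which Cufflinks marked LOWDATA in all 6 samples.

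Alox5 (chromosome 4 from 148398004 to 148446308), the 5-lipoxygenase, was listed at 0 in all SCP samples and in RSC replicates 1 and 3, and at 11.9 FPKM in RSC replicate 2, with bounds of 9.88 to 13.9 FPKM in the table. Samples of 1 group thus gave either 0 or a level like that of the called enzymes, and the limma adjusted p was 0.37. Such a pattern is not particular to Alox5, since 1361 of the 13003 tested genes had a 0 beside at least 5 FPKM in the same group, 833 of them within SCPs and 713 within RSCs. The Alox5 transcript concerned was marked LOWDATA in the SCPs and in RSC replicates 1 and 2. With the zeros of RSC replicates 1 and 3 left out, p was 6.4e-05, a value that rests on RSC replicate 2 alone, with its spread taken from other genes. No fold is given against a group listed at 0, and whether the zeros are failed estimates was not tested.

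In RSCs, by named transcripts alone, the genes ran by mean level from Alox5ap at 19.5 ± 2.99 FPKM, Ltc4s at 13.2 ± 5.50, Ptgs1 at 10.5 ± 1.21 and Ptgs2 at 7.81 ± 0.664 to Pla2g4a at 5.28 ± 0.368 FPKM (SD, n = 3). Below these came Ptgis at 1.57 ± 0.641, Ptges at 1.34 ± 0.551, Ptgds at 0.585 ± 0.380 and Hpgd at 0.0455 ± 0.0787 FPKM. Samples of Ltc4s overlapped those of Alox5ap, Ptgs1 and Ptgs2, and samples of Ptgis, Ptges and Ptgds overlapped one another. The steps from Ptgs1 to Ptgs2, to Pla2g4a and to Ptgis, and from Ptgds to Hpgd, separated the genes in every sample, and Alox5 is left out of the order for its zeros. With unnamed transcripts added, Ptgs2 had the highest mean, 22.4 ± 3.26 FPKM (SD, n = 3), above Alox5ap at 19.5 ± 2.99 FPKM, with samples that overlapped, and lay above Ptgs1 in every sample. In SCPs Ptgis led at 6.16 ± 0.811 FPKM, Ptgs1 followed at 1.48 ± 0.235 FPKM, and the means of the other genes were under 1 FPKM.

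The other genes of the pathway were read from hand-written lists of 74 genes in 6 groups. Of these 42 were tested, 14 were called higher in RSCs, 5 were called higher in SCPs and 23 were not called, beside the 18.1% and 22.4% of all tested genes called in each direction and 40.5% in both. Their median log2 fold change was 0.83, against -0.17 over all tested genes. Pla2g2d, Pla2g5, Pla2g7, Mgll, Tbxas1, Akr1c14, Mgst2, Dpep2, Ptgfr and Ptgir, all called higher in RSCs, had SCP means under 1 FPKM. They passed the filter only through their RSC values, which favoured a direction toward RSCs. These counts, those of each group and the median are therefore given as description only. The counts of each group below are to be read against the same shares, and the share called in the first 2 groups was near the background. The genes named are the called ones with the largest difference in each group, up to 3 in each direction, and the tested prostanoid receptors.

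**Figure D4:**
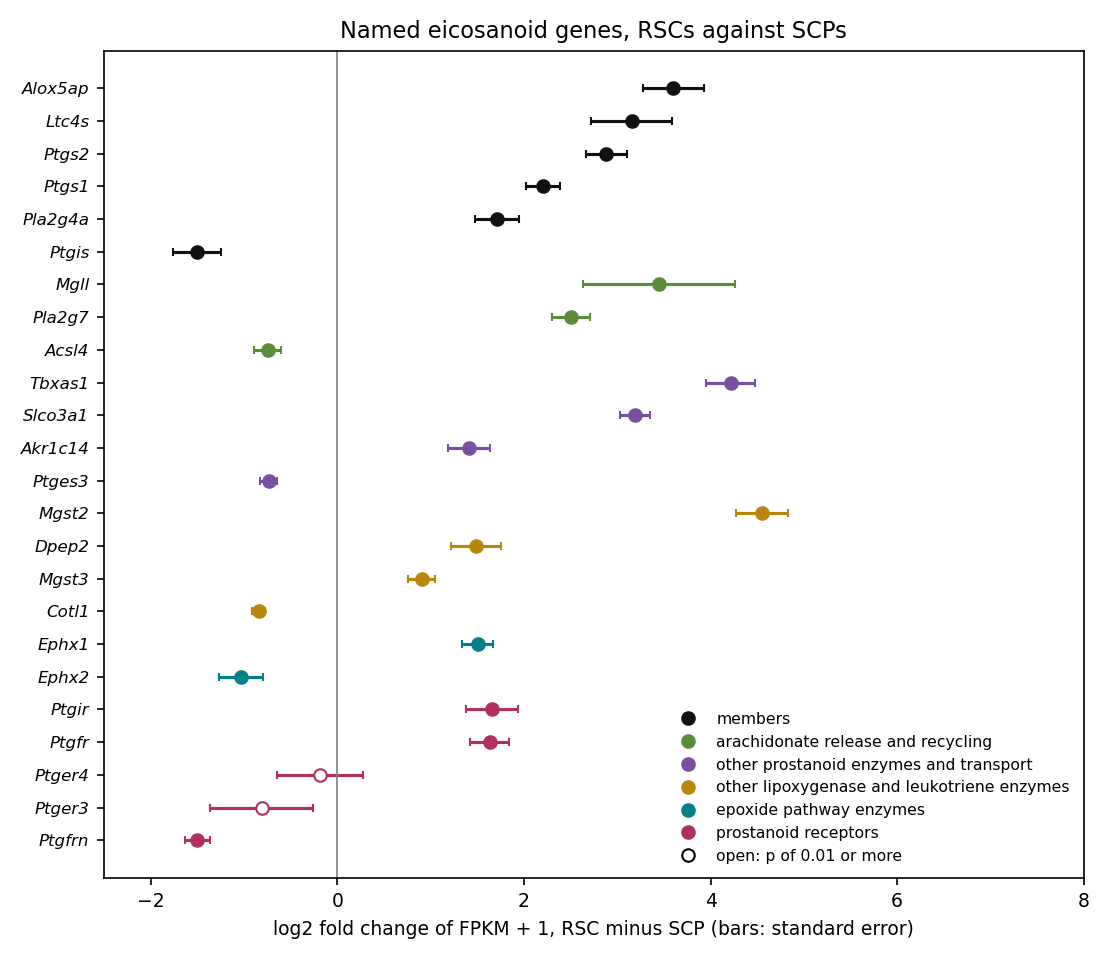
Log2 fold change of FPKM + 1, RSC minus SCP, with its standard error, for the named genes of the pathway, coloured by group, filled where p was under 0.01 and open otherwise. Alox5 and Pla2g2d are left out because a whole group is listed at 0. The points to the right of 0, higher in RSCs, reach 4.55 for Mgst2, and the lowest, Ptgis and Ptgfrn, lie at -1.50.

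Among 16 tested genes of arachidonate release and recycling, 5 were called higher in RSCs and 1 higher in SCPs. Pla2g2d, a secreted phospholipase A2, stood at 0 throughout the SCPs and at 9.01, 12.3 and 10.9 FPKM in the RSCs (adjusted p = 8.1e-05 by limma). Pla2g7, which cleaves platelet-activating factor, was at 0.230 to 0.613 FPKM in SCPs and 7.02 to 7.38 FPKM in RSCs, a log2 fold change of 2.50. Mgll, the lipase that breaks down the endocannabinoid 2-arachidonoylglycerol, was at 55.1 FPKM in RSC replicate 1 and at 7.09 and 7.25 FPKM in the others, against at most 1.03 FPKM in SCPs. Its log2 fold change of 3.45 (SE 0.82, limma adjusted p = 0.016, past the unadjusted threshold alone) was called with all samples and not once SCP replicate 1, 2 or 3 was left out, though the fold stayed at 3.19 to 3.70. Without RSC replicate 1 it was 2.52 and still called. With unnamed transcripts added, Mgll was at 55.1, 35.1 and 38.9 FPKM in the RSCs and at most 1.20 FPKM in SCPs, a log2 fold change of 4.39 (SE 0.18, limma adjusted p = 6.1e-06). Acsl4, which activates arachidonic acid for return to membranes, was at 14.7 to 18.9 FPKM in SCPs and 8.93 to 10.8 FPKM in RSCs, a log2 fold change of -0.75. That call was lost without RSC replicate 1 or SCP replicate 2 or 3, where the fold was still -0.68 to -0.71, after median-of-ratios scaling and with the highest transcript per gene.

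Among 11 tested genes of other prostanoid enzymes and transport, 3 were called higher in RSCs and 1 higher in SCPs. Tbxas1, the thromboxane synthase, stood out by size, at 0, 0.487 and 0.659 FPKM in the SCPs and 19.7, 28.1 and 25.2 FPKM in the RSCs, a log2 fold change of 4.22 (SE 0.26, limma adjusted p = 1.1e-04). Its RSC level lay above that of Ptgis in every sample, and its SCP level below. Slco3a1, a transporter that can carry prostaglandins, was at 1.41 to 2.06 FPKM in SCPs and 22.4 to 25.2 FPKM in RSCs, and Akr1c14, an aldo-keto reductase, at 0.0765 to 0.345 FPKM and 1.99 to 2.40 FPKM. Ptges3, a cochaperone that also has prostaglandin E synthase activity, was far more abundant than Ptges and lay at 156 to 189 FPKM in SCPs and 96.9 to 104 FPKM in RSCs, a log2 fold change of -0.74.

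Among 7 tested genes of other lipoxygenase and leukotriene enzymes, 3 were called higher in RSCs and 1 higher in SCPs. Mgst2, a relative of Ltc4s that can also make leukotriene C4, was listed at 0 in SCP replicates 1 and 2, at 0.640 FPKM in replicate 3, and at 21.4, 27.5 and 32.0 FPKM in the RSCs. Its log2 fold change of 4.55 (SE 0.28, limma adjusted p = 1.1e-04) exceeded that of Ltc4s, and its level lay above that of Ltc4s in each RSC sample. Dpep2, a dipeptidase that converts leukotriene D4 to E4, was at 0.240 to 0.335 FPKM in SCPs and 1.70 to 3.45 FPKM in RSCs. Mgst3, a glutathione transferase of membranes, was at 21.8 to 30.0 FPKM in SCPs and 44.8 to 54.4 FPKM in RSCs, and for both genes the call was lost when only the highest transcript was taken. Cotl1, an actin-binding protein that also binds 5-lipoxygenase, was at 228 to 257 FPKM in SCPs and 131 to 137 FPKM in RSCs, a log2 fold change of -0.84.

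Of the epoxide pathway, where epoxide hydrolases act on lipid epoxides, 3 genes were tested. Ephx1, the microsomal hydrolase, was higher in RSCs at 9.15 to 10.8 FPKM against 2.58 to 3.40 FPKM in SCPs, a log2 fold change of 1.50 (adjusted p = 9.4e-04 by limma). Ephx2, the soluble hydrolase, was at 2.65 to 3.79 FPKM in RSCs and 5.96 to 9.90 FPKM in SCPs, a log2 fold change of -1.03. The Ephx2 call was lost without RSC replicate 1 or 3 or SCP replicate 1 or 2, with adjusted p, with the replicate number as a block and with the highest transcript per gene.

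Of the 10 prostanoid receptor genes, 5 passed the filter. Ptgfr, the prostaglandin F receptor, was at 0.449 to 0.720 FPKM in SCPs and 3.45 to 4.30 FPKM in RSCs, a log2 fold change of 1.63 (adjusted p = 0.0016 by limma). Ptgir, the prostacyclin receptor, was at 0.276 to 1.19 FPKM in SCPs and 3.60 to 4.84 FPKM in RSCs, a log2 fold change of 1.66 (adjusted p = 0.0046 by limma). The receptor and the synthase of prostacyclin thus differed in opposite directions. Ptgfrn, a membrane protein that binds the prostaglandin F receptor and dampens it, was at 31.1 to 40.5 FPKM in SCPs and 11.5 to 13.0 FPKM in RSCs, a log2 fold change of -1.50. The prostaglandin E receptor genes Ptger3 and Ptger4 overlapped between the groups, with p of 0.19 and 0.70 by limma. With unnamed transcripts added, Ptger3 was at 7.26, 1.81 and 2.38 FPKM in the SCPs and at 0.639, 0.181 and 1.11 FPKM in the RSCs, which no longer overlapped, with a log2 fold change of -1.42 (SE 0.45, limma adjusted p = 0.028) that was not called. Ptger1, at 0 in every sample by named transcripts, was then at 13.8, 8.45 and 5.98 FPKM in the SCPs. In the RSCs it was at 6.52, 4.23 and 4.25 FPKM, with groups that overlapped (adjusted p = 0.065 by limma). Whether those unnamed transcripts belong to Ptger1 was not tested. None of the 8 leukotriene and lipoxin receptor genes passed the filter, and the most abundant by named transcripts, Cysltr1, was at 0.209, 0 and 0 FPKM in the SCPs and at 1.46, 2.25 and 1.20 FPKM in the RSCs.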

How the data were processed

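Poly(A) RNA of 6 samples was sequenced by the authors as stranded libraries with paired reads of 100 bases. Per the labels and methods, reads were mapped to rn6 with TopHat2 2.1.0 and assembled with Cufflinks 2.2.1. The deposited tables hold FPKM per transcript, normalized by the authors for length and mapped fragments, and the coverage of each transcript, a signal from which relative depth was taken (0.879 to 1 of the deepest sample in SCPs, 0.789 to 0.841 in RSCs). They hold no counts, so the absolute depth is unknown and no count test was run. Each table lists 61820 reference transcripts, of which 77 with names turned into dates were left out, and 8815 to 12417 unnamed transcripts.

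FPKM were summed by symbol. Genes were tested on log2(FPKM + 1) by limma 3.58.1 (R 4.3.3), two-sided, with a variance trend, no block and a mean of at least 1 FPKM. The unnamed transcripts of a Cufflinks locus were added, as an alternative, to the gene they overlap most. The genes, lists and motifs were chosen with earlier results of these data known. Named genes follow the rule given with the lists. Median-of-ratios scaling moved the median log2 fold change of all tested genes by 0.19, and the share of called genes higher in RSCs from 44.6% to 56.1%. In simulated data of 13003 genes, 89.5% of 200 genes changed by a log2 fold change of 3 were called, and 1.08% of unchanged genes. The values were drawn from normal distributions, which do not reproduce zeros beside high values in a group. Pla2g4a, Ptgs1, Ptgs2 and Ptgis differed by less than 3, so the share recovered does not give the power for the 10 genes. The labels name no batch. Figures were drawn with matplotlib 3.10.9.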

Additional observations from a re-analysis of the deposited data

How the results depend on the processing

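The 6 called genes among the 10 stayed 6, in the same directions (5 and 1), when any 1 sample was left out, under both scalings, without the variance trend, with adjusted p, with a pseudocount of 0.1, with the highest transcript per gene and with unnamed transcripts added. A mean of at least 5 FPKM left 3 genes tested, all 3 called higher in RSCs, beside 1728 of 8606 tested genes. These 3, Ptgs1, Alox5ap and Ltc4s, had SCP means of 0.579 to 1.48 FPKM and passed that filter only through their RSC values. Their direction under it is therefore no further support. No filter gave 7, with Ptgds added, beside 6195 of 20494 tested genes called. Leaving out zeros kept the first 6 in the same directions. It dropped the values against a difference in Alox5 and left that gene 1 RSC sample, so no call is read for it. Adding unnamed transcripts raised the called genes to 8040 over all genes, with 23.2% of tested genes higher in RSCs and 34.2% in SCPs, and to 29 of 45 in the other 74 pathway genes, among them all 19 of the first count, in the same direction. With 1 sample left out, the counts were 4449 to 4835 over all genes and 16 to 21 in the other pathway genes. Ptger4, not called, changed sign, to 0.0121 with unnamed transcripts, and ran from -0.58 to 0.27 with 1 sample left out, and the cause was not tested. The replicate numbers share only a number (correlations of same-numbered deviations -0.0049 to 0.044). A replicate block gave 4275 calls over all genes against 5268, 6 in the 10 genes and 19 in the other pathway genes. Unknown depth limits all values under 1 FPKM.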

Other observations

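Gpr17, a receptor that has been described as responding to uracil nucleotides and cysteinyl leukotrienes, was singled out after its values were seen. By named transcripts it stood at 0 throughout the SCPs and at 1.51, 0.226 and 0.246 FPKM in the RSCs. In each SCP sample unnamed signal that overlapped it was counted with it. The level then came to 21.4, 13.3 and 26.8 FPKM in SCPs, above every RSC value (log2 fold change -3.73, SE 0.37, limma adjusted p = 1.8e-04). The gene overlaps the named gene Lims2 and the strand of unnamed transcripts was not read here, so the level was not assigned to one gene or the other.

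Adding unnamed transcripts left the values of some uneven pathway genes closer among replicates and not those of others. Dagla, which makes 2-arachidonoylglycerol, went from 36.4, 28.8 and 9.62 FPKM to 36.4, 42.5 and 49.7 FPKM in the SCPs, and from 13.8, 12.6 and 1.50 FPKM to 13.8, 12.6 and 13.9 FPKM in the RSCs. Its groups overlapped by named transcripts and did not with unnamed ones (log2 fold change -1.59, SE 0.13, limma adjusted p = 8.1e-05). Abcc4, a transporter that can export prostaglandins, went from 0, 2.73 and 4.55 FPKM to 3.09, 5.61 and 4.55 FPKM in the RSCs, against 0.909 to 1.23 FPKM in the SCPs (log2 fold change 1.40, SE 0.21, limma adjusted p = 0.0013). Lpcat2, which returns fatty acids to membrane lipids, stayed uneven, at 0, 6.87 and 8.52 FPKM in the SCPs and 14.9, 0 and 14.2 FPKM in the RSCs. Hpgds in RSC replicate 3 and Daglb in SCP replicate 1 stayed at 0. These 5 genes were chosen after their values were seen.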
